A study of Mus musculus with 18 samples.

Results

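The genes described here are 54 mouse genes that handle oxidants and electrophiles, taken by name from a table of 24527 entries: the regulator NRF2 (gene Nfe2l2) and its inhibitor Keap1, enzymes that make, use and recycle glutathione, the thioredoxin and peroxiredoxin genes, the enzymes that supply NADPH, and the ferritins. A list gave 32 of them, and the other 22 are the rows whose symbol has the form of a glutathione transferase gene (Gst, a class letter among a, m, o, p, k, t and z, and a number). The rule uses gene names and no measured value, but the members were chosen with earlier results of these data known. A filter on low counts kept 53 of the 54. The gene left out, Gstt4, had 0 counts in all 18 libraries, against a floor of 3 counts.

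They were measured by RNA-seq in 3 lines of mouse pancreatic ductal adenocarcinoma cells, PD454, PD7591 and PD883, given as of mixed strain background. Each line was cultured for 48 h with DMSO, the vehicle, with ionomycin at 2.5 µM, an ionophore that lets calcium into the cell, or with TGFb at 10 ng/ml, a cytokine that can drive epithelial-mesenchymal transition (EMT). The study's title asks about calcium signalling and partial EMT. Every group of line and treatment has 2 libraries, so 6 per treatment. All groups shared a medium that held, among other supplements, insulin, transferrin, selenium, dexamethasone, cholera toxin and nicotinamide. The labels do not give the tumours' driver alleles, nor do they say that duplicate libraries are separate cultures; p-values measure the spread between these libraries, which may be technical.

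As background, KEAP1 binds NRF2 and marks it for destruction, and oxidants or electrophiles that modify KEAP1 let NRF2 build up, enter the nucleus and, with a small MAF protein, bind antioxidant response elements near its target genes. Much of this control acts on the NRF2 protein, which RNA-seq does not measure. Glutathione is made from glutamate, cysteine and glycine by glutamate-cysteine ligase (catalytic subunit Gclc, modifier subunit Gclm) and glutathione synthetase (Gss). Glutathione transferases join it to electrophiles. Thioredoxin and glutathione are both returned to their reduced form with electrons from NADPH. In pancreatic carcinoma NRF2 is known for keeping oxidants low in tumour cells.

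Library totals ran from 17591005 to 37894692 counts, and 13827 genes were tested. The 54 genes held 0.756% to 1.24% of a DMSO library, 1.13% to 1.58% of an ionomycin library and 0.672% to 0.929% of a TGFb library. Levels are CPM, reads scaled to a common library size after TMM normalisation; intervals and floors cover counting error only. All 10 ductal epithelial markers were detected (Krt8 at 1376 to 3257 CPM), but Epcam stood at only 0.73 to 4.30 CPM and Krt19 fell to 4.12 CPM in its lowest library. The summed level of 7 fibroblast markers was 2.66 to 6.16 CPM with DMSO and 7.66 to 102 CPM with TGFb, with Col1a1 up to 84.3 CPM. The sum of 7 immune markers was 3.62 to 5.87 CPM with DMSO and 8.37 to 29.3 CPM with ionomycin, with the macrophage marker Cd68 up to 28.8 CPM and the pan-leukocyte marker Ptprc at 0.27 CPM or less. Sums of acinar and endocrine markers did not pass 0.53 CPM in any library, and endothelial markers did not pass 3.43 CPM. The part of these markers in the results below was not tested. In 4 libraries (DMSO PD454 14, DMSO PD883 8, TGFb PD454 18 and TGFb PD883 12) short transcripts were richer than in their duplicates. Results that were rerun without them and changed are given both ways.

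Stretches before 5 members' start sites are shown, since members with and without the core of an antioxidant response element near the start moved here. They come from RefSeq promoter windows on GRCm38.p6 (250 bases before to 50 after a start), which matched 47 of the 54 genes; among those with no window were Gclc, Gsr, Hmox1, Abcc1, Prdx6 and Gsta4. Each line begins 150 bases before a start and runs 5′ to 3′ on the gene's strand and ends just before that start or before the first base of a GENCODE M21 exon, whichever comes first. Capitals mark the core, TGACNNNGC on either strand.
Gclm: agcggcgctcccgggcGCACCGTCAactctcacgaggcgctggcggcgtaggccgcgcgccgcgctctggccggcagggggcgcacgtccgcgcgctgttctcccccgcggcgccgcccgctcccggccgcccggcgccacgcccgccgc
Prdx1: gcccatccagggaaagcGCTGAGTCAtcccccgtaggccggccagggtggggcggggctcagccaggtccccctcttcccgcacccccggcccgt
Txnrd1: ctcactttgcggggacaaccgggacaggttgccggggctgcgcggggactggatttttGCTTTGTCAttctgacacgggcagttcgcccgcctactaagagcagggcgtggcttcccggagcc
Gsta1: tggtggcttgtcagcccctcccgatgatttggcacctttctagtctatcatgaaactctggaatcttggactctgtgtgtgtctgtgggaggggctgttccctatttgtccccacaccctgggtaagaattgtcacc
Gsta2: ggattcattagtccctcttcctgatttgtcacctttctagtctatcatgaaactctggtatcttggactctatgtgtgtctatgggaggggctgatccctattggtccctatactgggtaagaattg

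These stretches lie at chr3:122245407-122245556 (Gclm, plus strand), chr4:116685449-116685543 (Prdx1, plus), chr10:82859056-82859178 (Txnrd1, plus, 1 of its 3 windows), chr9:78230519-78230655 (Gsta1, plus) and chr9:78347169-78347295 (Gsta2, minus). The core begins 134 bases before the start in Gclm, 133 in Prdx1 and 92 in Txnrd1. The Prdx1 match also holds the AP-1 letters TGACTCA on the minus strand, the only one of the 5 stretches with that word. Over whole windows, 13 of the 47 member genes (27.7%) held the core in at least 1 window, against 13.99% of the 27025 genes with a window. A gene with more windows has more places for a match. Counted by window, 15 of 66 member windows (22.7%) held it, against 12.4% of all 32851 windows. The windows of Gsta1 and Gsta2, which rose with ionomycin and fell with TGFb, held none.

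**Figure D1:**
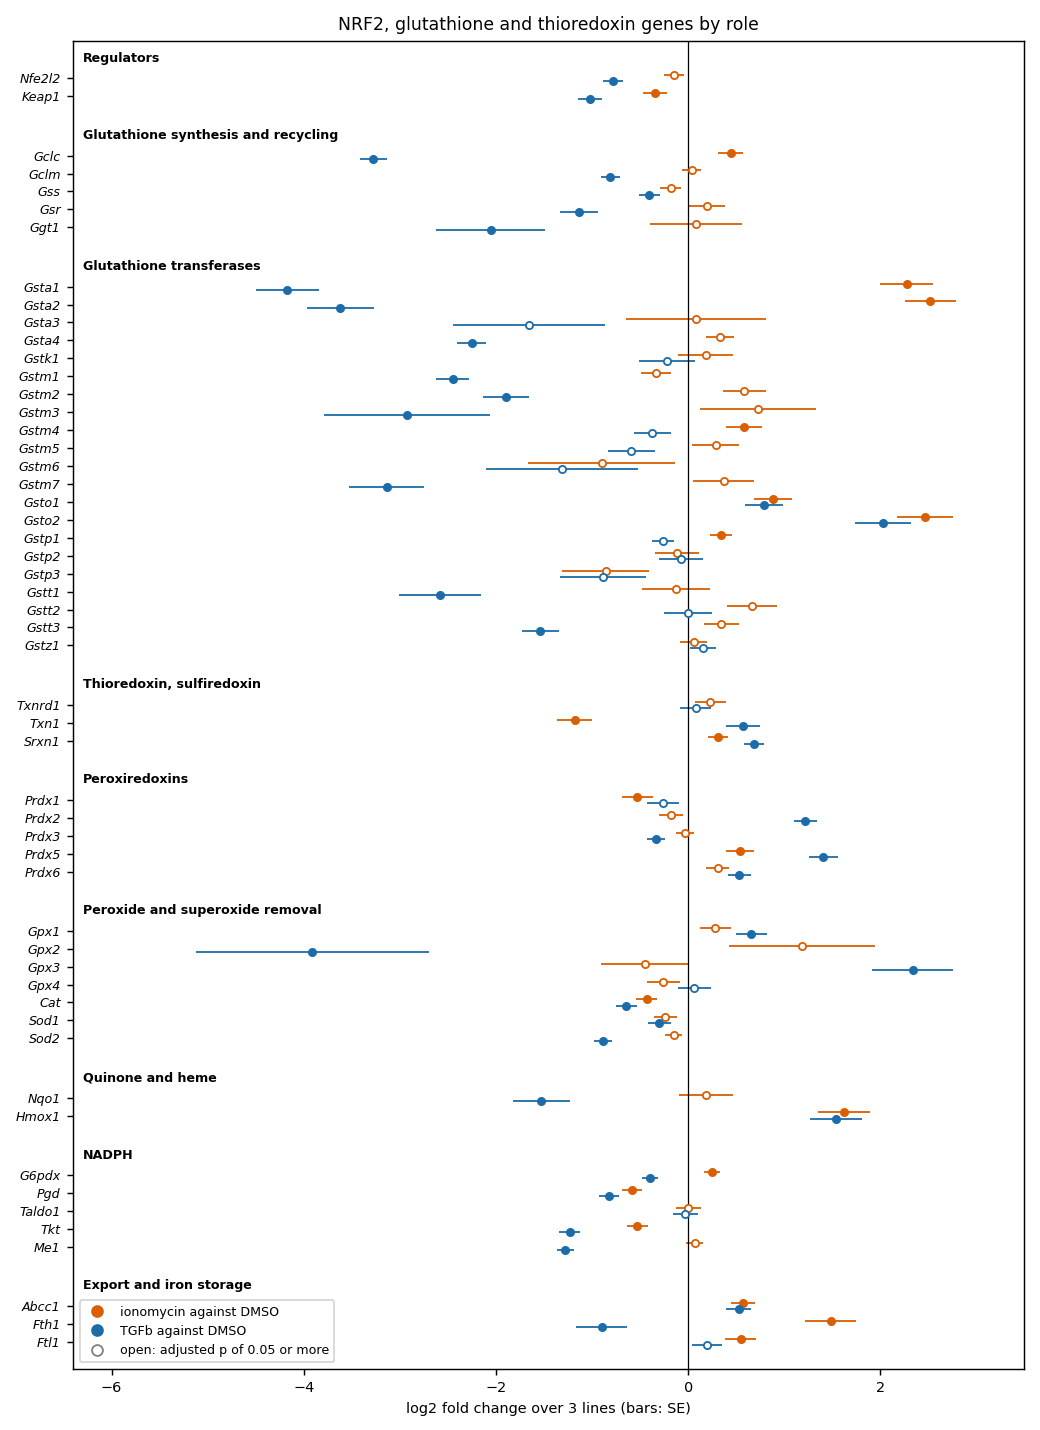
Log2 fold change over the 3 lines (x axis) of the 53 tested genes (y axis), grouped by role, for ionomycin (orange) and TGFb (blue) against DMSO; bars are SE, and filled points have an adjusted p under 0.05. With TGFb the glutathione synthesis genes and 9 transferases have filled points left of 0, and with ionomycin the largest shifts to the right are Gsta2, Gsto2, Gsta1, Hmox1 and Fth1.

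With TGFb, 27 of the 53 genes were lower than with DMSO, 11 were higher and 15 were not called (adjusted p under 0.05, edgeR quasi-likelihood F test over the 3 lines). Of all 13827 genes, 26.5% were called lower and 24.3% higher, 50.7% in all, against 71.7% of the members. The members' median log2 fold change was -0.59, against -0.00 over all genes, and 17 of the 27 fell at least 2-fold and 5 of the 11 rose as much, sizes that 12.4% and 8.88% of all genes reached. With ionomycin, 14 members were higher, 6 lower and 33 not called, beside 17.2% and 16.1% of all genes (37.7% of members called, 33.3% of all genes). Of these, 5 rose and 1 fell at least 2-fold, beside 5.61% and 4.15% of all genes, and the median was 0.19 against -0.03 over all genes. Under library totals the split of all genes called with ionomycin moved from 2372 higher and 2227 lower to 1936 higher and 2995 lower, and that of the members from 14 and 6 to 11 and 7. Median-ratio factors gave 17 and 6 members (2454 and 2165 of all genes). An offset for transcript length gave 19 and 6 members (2636 and 2324 of all genes). The members' count of rises with ionomycin was 9 without PD7591, 7 with no line term and 6 with the duplicates of each line summed, which gave 3 falls, as did leaving out PD883. Summing duplicates ended 11 of the 20 ionomycin calls and 7 of the 38 TGFb calls. All genes called with ionomycin also dropped, to 1159 higher and 733 lower with duplicates summed and to 1183 and 969 with no line term. Those called higher with TGFb came to 2136 and 2193 in the same runs, from 3356. Among the members, rises with TGFb numbered 7 without PD7591. In RNA from whole cultures, fewer cells of a type and less RNA per cell cannot be told apart. The effects of all 11 members that rose with TGFb, and of 26 of the 27 that fell, had the same sign in each of the 3 lines. The other was Gpx2, with 0 reads in PD7591 under both DMSO and TGFb. With ionomycin the same sign held for 13 of 14 that rose, all but G6pdx, and for all 6 that fell. These members were called over the same libraries, so such agreement is partly built in. Its share over all called genes was not computed.

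Both regulators fell with TGFb, as did 26.5% of all genes. Nfe2l2 (chr2:75675513-75704641, minus strand, GENCODE M21 on GRCm38) ran from 133 to 172 CPM with DMSO (median 160), from 123 to 172 with ionomycin (median 137) and from 82.9 to 110 with TGFb (median 87.0). All TGFb libraries lay below all DMSO libraries, while the ionomycin libraries overlapped them. The log2 fold change was -0.79 ± 0.10 (SE) with TGFb (adjusted p = 4.47e-06) and -0.15 ± 0.10 with ionomycin (0.283). Keap1, the adaptor that presents NRF2 to its ubiquitin ligase (chr9:21229730-21239361, minus strand), had 91.4 to 148 CPM with DMSO (median 130), 76.8 to 130 with ionomycin (median 89.5) and 52.9 to 68.3 with TGFb (median 59.2). The TGFb libraries again lay apart, with a log2 fold change of -1.02 ± 0.13 (edgeR adjusted p = 2.15e-06). The smaller fall with ionomycin, -0.35 ± 0.13 (0.0394), lost its call when any 1 of 8 libraries was left out (adjusted p = 0.0648 to 0.0961), namely either DMSO library of PD7591 or PD883, or either ionomycin library of PD454 or PD883.

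All 5 genes of glutathione synthesis and recycling were called lower with TGFb, though for Ggt1 the call follows in part from the low-count filter. Of the 5, only Gclc was called higher with ionomycin. Of all genes, 26.5% were called lower with TGFb and 17.2% higher with ionomycin. Gclc (chr9:77754535-77794485, plus strand) encodes the catalytic subunit of the rate-limiting ligase. It had 565 to 895 CPM with DMSO (median 627), 869 to 965 with ionomycin (median 929) and 58.1 to 91.4 with TGFb (median 62.8). No TGFb library came near any other, and the ionomycin libraries overlapped those with DMSO only through DMSO PD883 7, whose 895 CPM exceeded both ionomycin libraries of PD7591. The fall with TGFb was 9.68-fold (log2 -3.28 ± 0.14, adjusted p = 2.53e-12), and its log2 fold change stayed between -3.58 and -3.00 when any 1 line was left out. With ionomycin it rose by 0.44 ± 0.13 on the log2 scale (0.0132); without PD454 or without PD7591 that call was lost (adjusted p = 0.0603 and 0.111).

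The partner subunit moved far less. Gclm (chr3:122245557-122270732, plus strand) ran from 107 to 165 CPM with DMSO (median 137), from 100 to 166 with ionomycin (median 145) and from 62.8 to 98.5 with TGFb (median 69.7). The TGFb libraries lay below all DMSO libraries (log2 fold change -0.81 ± 0.10, adjusted p = 1.76e-06), and with ionomycin the difference was 0.04 ± 0.10 (0.808). The ratio of catalytic to modifier subunit was not tested as such. Gsr, which reduces oxidised glutathione, fell by 1.14 ± 0.20 on the log2 scale with TGFb (adjusted p = 9.1e-05), although its DMSO level ranged from 112 to 538 CPM between lines. Gss fell by 0.40 ± 0.11 (0.00459), a call lost without PD454 (0.1) and with no line term (0.0659). Ggt1, which splits extracellular glutathione, was barely present, at 1.14 CPM or less in any library, and fell by 2.05 ± 0.57 (0.00566). It passed the low-count filter only through DMSO and ionomycin libraries, mainly those of PD883 (1.14 and 0.82 CPM with DMSO). No TGFb library held more than 0.28 CPM, so the call follows in part from the filter. The Ggt1 call was lost when edgeR was fitted with a mean per group (0.116) or with no line term (0.132).

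**Figure D2:**
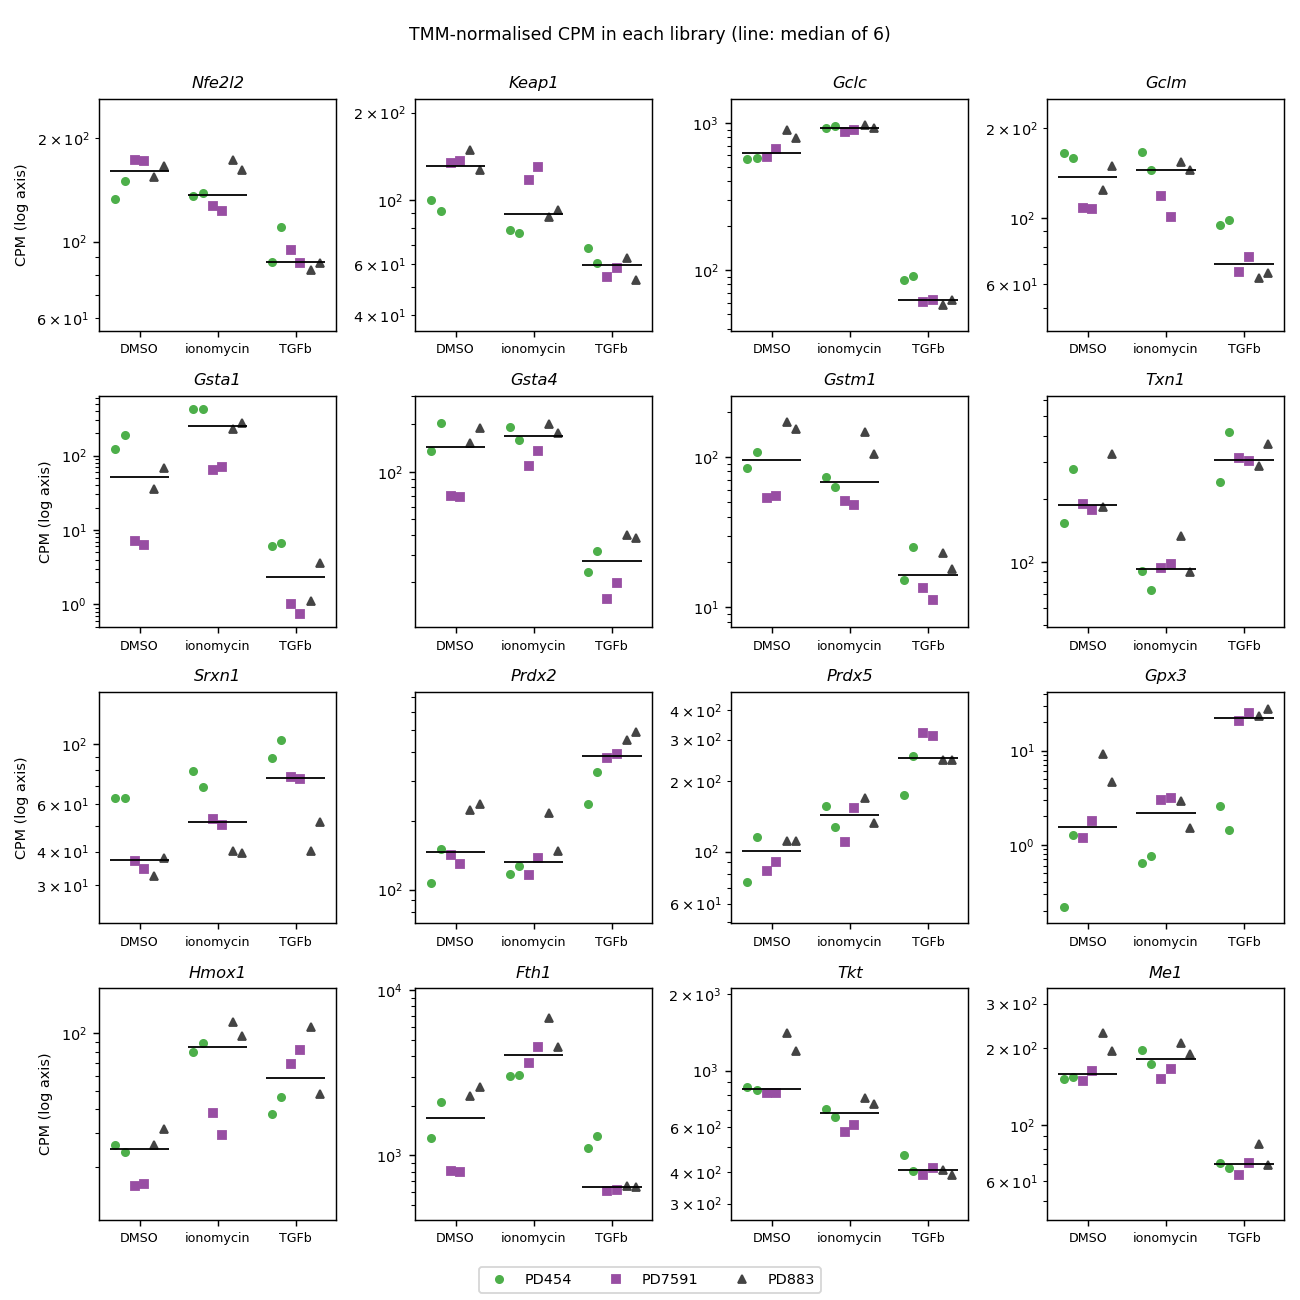
TMM-normalised CPM (y axis, log scale) of 16 members in each of the 18 libraries, by treatment (x axis); circles are PD454, squares PD7591, triangles PD883, and the line is the median of 6. Gclc sits at 58.1 to 91.4 CPM in the TGFb libraries and at 565 to 965 CPM elsewhere, and Txn1 is lowest with ionomycin.

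Of the glutathione transferases, 9 of 21 fell with TGFb, each at least 2-fold, and 2 rose. The shares of all genes were 26.5% lower (12.4% by at least 2-fold) and 24.3% higher. In either direction 52.4% of the transferases were called, beside 50.7% of all genes. With ionomycin 6 rose and the other 15 were not called, beside 17.2% of all genes called higher and 16.1% lower. In either direction that was 28.6% of the transferases beside 33.3% of all genes. Among those that fell with TGFb were 3 of the 4 alpha genes, 4 of the 7 mu genes and 2 of the 3 tested theta genes; the 2 that rose were the omega genes.

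Gsta1 and Gsta2, alpha-class enzymes that conjugate electrophiles, rose with ionomycin and fell with TGFb. Gsta1 (chr9:78230656-78242684, plus strand) had 6.37 to 187 CPM with DMSO (median 52.0), 63.5 to 425 with ionomycin (median 250) and 0.75 to 6.60 with TGFb (median 2.35). The overall ranges overlapped, with PD7591 at 6.37 and 7.19 CPM with DMSO, but within each line the 3 treatments did not overlap. It was 4.84-fold higher with ionomycin (log2 2.28 ± 0.28, adjusted p = 8.1e-06) and lower with TGFb (log2 -4.17 ± 0.32, adjusted p = 5.98e-09). Gsta2 (chr9:78331018-78355788, minus strand) had 0.31 to 12.6 CPM with DMSO (median 3.70), 4.79 to 45.0 with ionomycin (median 22.8) and 0 to 0.79 with TGFb (median 0.30). It followed the same order in each line, with log2 fold changes of 2.52 ± 0.26 (1.34e-06) and -3.62 ± 0.35 (8.42e-08). Their values are not independent: 89.7% of the 50-base words of Gsta1 and 64.2% of those of Gsta2 occur in transcripts of other genes, so reads could have been shared or dropped between copies.

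Gsta4, which prefers the lipid peroxidation product 4-hydroxynonenal, shares no such words. It had 68.9 to 202 CPM with DMSO (median 144), 108 to 202 with ionomycin (median 168) and 15.7 to 40.0 with TGFb (median 27.3). The TGFb libraries lay apart (log2 fold change -2.25 ± 0.15, adjusted p = 7.95e-10), and the ionomycin libraries overlapped those with DMSO (0.33 ± 0.14, 0.085). Without the 4 libraries rich in short transcripts it was called higher with ionomycin (0.54, 0.00841). Gstm1, a mu-class enzyme (23.1% of words shared), had 53.7 to 170 CPM with DMSO (median 95.7), 47.9 to 145 with ionomycin (median 68.0) and 11.1 to 25.2 with TGFb (median 16.5). It was 5.47-fold lower with TGFb (log2 -2.45 ± 0.17, adjusted p = 8.72e-10), again with no overlap, and was not called with ionomycin (-0.33 ± 0.16, 0.108).

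The other transferases that fell with TGFb stood at lower levels. Gstm2 fell by 1.90 ± 0.24, Gstm7 by 3.14 ± 0.39, Gstt1 by 2.58 ± 0.42 and Gstt3 by 1.54 ± 0.20 on the log2 scale, from DMSO medians of 7.86, 1.91, 1.46 and 7.36 CPM. For Gstm3 only 23 reads were counted with DMSO and 3 with TGFb, 8.13 times fewer (95% exact interval for counting error 2.46 to 42.3). With ionomycin Gstm4 rose by 0.58 ± 0.19 (adjusted p = 0.0235) and Gstp1 by 0.34 ± 0.12 (0.0299). Neither call held without each single library: Gstm4 lost it without DMSO PD7591 1, DMSO PD883 8 or ionomycin PD883 9 (0.0517 to 0.055), and Gstp1 without DMSO PD454 13, DMSO PD7591 1 or 2, or ionomycin PD883 9 (0.0636 to 0.0749). Gstp1, the pi-class gene, was the transferase with the highest level per kilobase (336 RPKM with DMSO) and shares 62.3% of its words, mainly with Gstp2. Transferases called in neither comparison were Gsta3, Gstk1, Gstm5, Gstm6, Gstp2, Gstp3, Gstt2 and Gstz1. Of these, Gstm5 lay close to a call with TGFb (log2 fold change -0.59 ± 0.25, edgeR adjusted p = 0.0542). It was called lower by DESeq2 (0.0357), by limma-voom (0.0375) and by edgeR with an offset for transcript length (0.00629), but not in every alternative run.

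The omega genes, neighbours on chromosome 19 whose products reduce dehydroascorbate and other small molecules, were higher with both agents. Gsto1 (chr19:47854970-47864790, plus strand) had 66.2 to 209 CPM with DMSO (median 147), 198 to 268 with ionomycin (median 248) and 193 to 264 with TGFb (median 222). The ranges overlapped only through DMSO PD454 14, the highest DMSO library. The log2 fold changes were 0.88 ± 0.20 (adjusted p = 0.00234) and 0.79 ± 0.20 (0.00282); without PD7591 the TGFb call was lost (0.0561), and with duplicates summed both were (0.069 and 0.0619). Gsto2 rose from 0.17 to 0.90 CPM with DMSO to 1.80 to 4.03 with ionomycin and 1.59 to 2.95 with TGFb, with no overlap. Its log2 fold changes were 2.47 ± 0.30 and 2.03 ± 0.29 (adjusted p = 6.27e-06 and 1.35e-05). The 2 comparisons share their DMSO libraries.

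**Figure D3:**
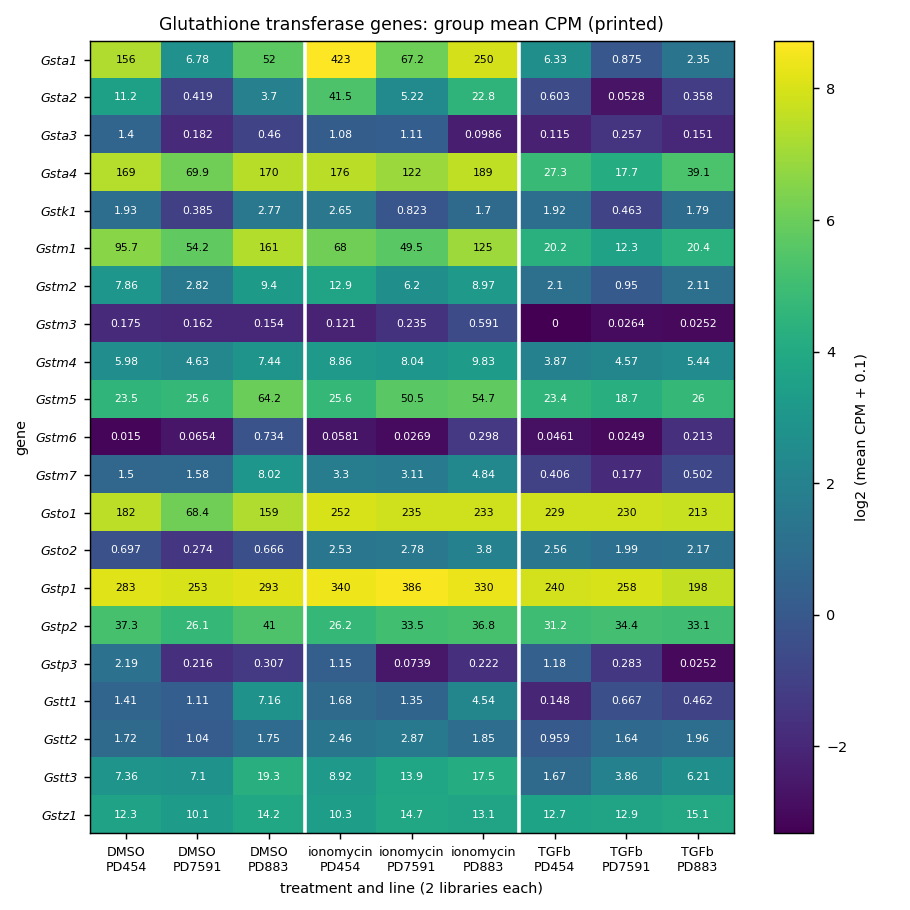
Mean CPM of the 21 detected glutathione transferase genes (rows) in the 9 groups of treatment and line (columns, 2 libraries each); the mean is printed in each cell and the colour is its log2 after adding 0.1. Gsta1 runs from 423 CPM (ionomycin PD454) to 0.88 (TGFb PD7591), while Gstp1 stays between 198 and 386 CPM.

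In the thioredoxin system the agents differed in direction at Txn1, the cytosolic thioredoxin that reduces protein disulfides (chr4:57943373-57956411, minus strand). It had 154 to 329 CPM with DMSO (median 187), 73.1 to 133 with ionomycin (median 92.2) and 240 to 418 with TGFb (median 309). All ionomycin libraries lay below all DMSO libraries, and those with TGFb overlapped them. The log2 fold change was -1.18 ± 0.18 with ionomycin (adjusted p = 7.63e-05) and 0.57 ± 0.18 with TGFb (0.0119), and ionomycin libraries were 3.37-fold below TGFb libraries (1.54e-07). Txn1 has a short transcript, and its 2 highest DMSO values, 280 and 329 CPM, were in libraries rich in short transcripts. With the 4 libraries of that kind left out the log2 fold changes were -0.86 and 0.72, and both calls held. The rise with TGFb lost its call without PD7591 (0.141).

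Txnrd1, the reductase that recharges thioredoxin, was called in neither comparison. It ran from 113 to 293 CPM with DMSO (median 252), from 171 to 291 with ionomycin (median 269) and from 198 to 252 with TGFb (median 231), and all ranges overlapped (log2 fold changes 0.23 ± 0.16 and 0.08 ± 0.16, adjusted p = 0.288 and 0.713). Within PD883, where DMSO gave 113 and 160 CPM, it was higher with ionomycin (0.89 ± 0.21, 0.007) and with TGFb (0.62 ± 0.21, 0.0278), but the test that the response differs between lines gave adjusted p = 0.0802 and 0.172. Srxn1, sulfiredoxin, which repairs over-oxidised peroxiredoxins, had 32.6 to 63.4 CPM with DMSO (median 37.4), 39.6 to 79.6 with ionomycin (median 51.5) and 40.3 to 104 with TGFb (median 75.0). These ranges overlapped, and PD454 stood high under each treatment. It rose by 0.69 ± 0.11 on the log2 scale with TGFb (adjusted p = 2.78e-05) and by 0.31 ± 0.11 with ionomycin (0.0311); the second call was lost without any 1 of 6 libraries (DMSO PD7591 1 or 2, ionomycin PD454 15, PD7591 3, PD883 9 or 10; 0.0506 to 0.0905).

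Of the 5 peroxiredoxins, which break down peroxides with thioredoxin or glutathione, 3 rose and 1 fell with TGFb. The shares of all genes were 24.3% and 26.5%. Prdx2 had 107 to 237 CPM with DMSO (median 147), 116 to 216 with ionomycin (median 132) and 238 to 489 with TGFb (median 384). The TGFb libraries lay above all others, the lowest of them barely above the highest with DMSO (log2 fold change 1.22 ± 0.12, adjusted p = 1.51e-07). Prdx5, a mitochondrial and peroxisomal member, had 74.2 to 116 CPM with DMSO (median 100), 110 to 169 with ionomycin (median 143) and 174 to 319 with TGFb (median 250). It rose with TGFb without overlap (1.41 ± 0.15, 3.09e-07) and less with ionomycin, with overlap (0.54 ± 0.15, 0.00864), a call lost with duplicates summed (0.0642). Prdx6, which uses glutathione and acts on phospholipid peroxides, had 176 to 368 CPM with DMSO (median 226), 233 to 412 with ionomycin (median 294) and 324 to 402 with TGFb (median 338). The TGFb range overlapped that with DMSO through DMSO PD454 14, the highest DMSO library. It rose by 0.53 ± 0.12 with TGFb (0.00116), a call lost without PD7591 (0.0747). With ionomycin it was not called (0.31 ± 0.12, 0.0567), but was called higher without the 4 libraries rich in short transcripts (0.41, 0.0333).

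Prdx1, the abundant cytosolic peroxiredoxin, had 376 to 708 CPM with DMSO (median 432), 301 to 420 with ionomycin (median 340) and 286 to 539 with TGFb (median 438), all overlapping. Its log2 fold change with ionomycin was -0.53 ± 0.17 (adjusted p = 0.02). The 2 highest DMSO values were again in libraries rich in short transcripts, and without the 4 such libraries it was -0.22 (0.191). The call was also lost without DMSO PD454 14, DMSO PD883 8 or ionomycin PD883 10 alone (0.0543 to 0.0718). Mitochondrial Prdx3 fell by 0.34 ± 0.09 with TGFb (0.00585), a call lost without PD883 (0.0505).

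Among enzymes that remove peroxide and superoxide, 4 of 7 fell and 2 rose with TGFb, and 1 fell with ionomycin. The shares of all genes were 26.5%, 24.3% and 16.1%. Cat, catalase, had 101 to 217 CPM with DMSO (median 107), 78.2 to 132 with ionomycin (median 95.7) and 70.0 to 104 with TGFb (median 80.9). The ranges overlapped, and PD883 stood at 198 and 217 CPM with DMSO and the other lines near 100; Cat fell with ionomycin (log2 fold change -0.43 ± 0.11, adjusted p = 0.00539) and with TGFb (-0.64 ± 0.11, 7.86e-05). The ionomycin call was lost without PD883 (0.0852). Sod2, the mitochondrial superoxide dismutase, fell with TGFb from 68.3 to 83.9 CPM to 33.8 to 48.5 CPM with no overlap (-0.89 ± 0.09, 1.69e-07). Sod1 was called lower (-0.30 ± 0.12, 0.0436), a call lost without the 4 libraries rich in short transcripts (0.133) and without any 1 of 16 libraries (0.0509 to 0.165) and kept only without DMSO PD7591 2 or DMSO PD883 7.

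Gpx3, the secreted glutathione peroxidase, had 0.22 to 9.24 CPM with DMSO (median 1.52), 0.65 to 3.12 with ionomycin (median 2.20) and 1.43 to 27.9 with TGFb (median 22.0). The 4 TGFb libraries of PD7591 and PD883 (20.5 to 27.9 CPM) exceeded all DMSO libraries, and those of PD454 (1.43 and 2.59) did not. Over the lines it rose 5.06-fold (log2 2.34 ± 0.42, adjusted p = 1.46e-04), with a log2 fold change of 1.67 when PD7591 was left out, and the test that the response differs between lines gave 0.0653. Gpx1, the cytosolic peroxidase, rose by 0.66 ± 0.16 with TGFb (0.00207), a call lost without PD7591 (0.0585). With ionomycin it was not called (0.28 ± 0.16, 0.179), but was called higher without the 4 libraries rich in short transcripts (0.55, 0.00416). Gpx4, which guards membranes against lipid peroxides, had 40.9 to 116 CPM with DMSO (median 67.3), 42.7 to 101 with ionomycin (median 51.1) and 50.6 to 98.7 with TGFb (median 68.5). These ranges coincided, and it was not called (-0.26 ± 0.17 with ionomycin and 0.07 ± 0.17 with TGFb, adjusted p = 0.261 and 0.772); 61.7% of its words occur elsewhere, mainly in a pseudogene. Gpx2 was read 13 times with DMSO and 0 times with TGFb, at least 4.59-fold lower when TGFb is set at the floor of 3 reads for the group. Its call was lost without TGFb PD454 18 (0.0587) and with all 4 libraries rich in short transcripts dropped (0.113).

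The quinone and heme enzymes parted with TGFb. Nqo1, a quinone reductase often used as a readout of NRF2, was low, with 0.99 to 9.45 CPM with DMSO (median 1.95), 1.57 to 5.47 with ionomycin (median 3.26) and 0.16 to 3.00 with TGFb (median 0.89). The ranges overlapped, with PD883 the highest line under each treatment, but within each line both TGFb libraries lay below both DMSO libraries. It fell by 1.53 ± 0.30 with TGFb (adjusted p = 2.91e-04) and was not called with ionomycin (0.19 ± 0.28, 0.636). Hmox1, inducible heme oxygenase (chr8:75093621-75100589, plus strand), had 15.9 to 31.6 CPM with DMSO (median 25.0), 29.3 to 114 with ionomycin (median 84.5) and 37.9 to 107 with TGFb (median 58.5). All TGFb libraries exceeded all DMSO libraries, and 1 ionomycin library of PD7591, at 29.3 CPM, lay below the top DMSO value. It rose by 1.62 ± 0.27 with ionomycin and 1.54 ± 0.27 with TGFb on the log2 scale (1.83e-04 and 1.15e-04).

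Of the 5 NADPH-producing and pentose phosphate genes, 4 fell with TGFb, beside 26.5% of all genes. Tkt, transketolase (chr14:30548359-30574720, plus strand), had 816 to 1405 CPM with DMSO (median 849), 572 to 781 with ionomycin (median 681) and 388 to 467 with TGFb (median 405). The 3 treatments formed separate ranges, with log2 fold changes of -0.53 ± 0.11 with ionomycin (adjusted p = 0.00132, or 0.073 with duplicates summed) and -1.23 ± 0.11 with TGFb (3.95e-08). Pgd, the second NADPH-yielding step of the oxidative branch, had 301 to 554 CPM with DMSO (median 382), 217 to 348 with ionomycin (median 262) and 169 to 294 with TGFb (median 223). It fell with both agents (-0.58 ± 0.10 and -0.82 ± 0.10, adjusted p = 2.67e-04 and 2.02e-06), with overlap only for ionomycin. Me1, malic enzyme, had 149 to 229 CPM with DMSO (median 159), 152 to 211 with ionomycin (median 182) and 63.4 to 84.0 with TGFb (median 70.1). Its TGFb libraries lay far below the others (-1.28 ± 0.09, 1.25e-09), and with ionomycin it was not called (0.07 ± 0.09, 0.561). G6pdx, the entry enzyme of the pathway, fell with TGFb (-0.40 ± 0.08, 5.78e-04). Its rise with ionomycin, 0.25 ± 0.08 (0.0289), was lost without any 1 of 7 libraries (both DMSO and both ionomycin libraries of PD454, DMSO PD883 8, and ionomycin PD883 9 or 10; 0.0513 to 0.0729), and also when the 4 libraries rich in short transcripts were dropped (0.11). Taldo1, transaldolase, was called in neither.

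The ferritin genes were the members with the highest level per kilobase, Ftl1 at 1607 and Fth1 at 1056 RPKM with DMSO, followed by Gstp1 at 336 and Tkt at 307. Fth1, the heavy chain that oxidises iron for storage (chr19:9980598-9985098, plus strand), had 799 to 2604 CPM with DMSO (median 1690), 3033 to 6824 with ionomycin (median 4053) and 613 to 1316 with TGFb (median 648). All ionomycin libraries exceeded all DMSO libraries, while the TGFb libraries of PD454 exceeded the DMSO libraries of PD7591, so those ranges overlapped. It rose by 1.48 ± 0.27 with ionomycin (adjusted p = 3.89e-04) and fell by 0.90 ± 0.27 with TGFb (0.00866). The fall lost its call without PD883 (0.217), and also when the 4 libraries rich in short transcripts were dropped (0.0656). Ftl1, the light chain, rose by 0.55 ± 0.16 with ionomycin (0.013), lost its call without PD7591 (0.2), and shares 78.9% of its words with other genes, many of them pseudogenes. Abcc1, which exports glutathione conjugates, had 79.6 to 147 CPM with DMSO (median 115), 148 to 213 with ionomycin (median 157) and 106 to 198 with TGFb (median 174). It rose with both agents (0.57 ± 0.13 and 0.53 ± 0.13, adjusted p = 0.00228 and 0.00216), and only the ionomycin libraries lay wholly above those with DMSO.

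Set directly against each other, ionomycin gave higher levels than TGFb at 28 members and lower levels at 6, beside 31% and 31.9% of all genes, 62.9% in all, against 64.2% of the members. Among the 28 were Gpx2 and Gstm3, kept by the low-count filter only through ionomycin libraries of 1 line each. These held 0.51 and 0.93 CPM in PD454 for Gpx2, and 0.55 and 0.64 CPM in PD883 for Gstm3. Ggt1, also among the 28, was kept only through DMSO and ionomycin libraries. The calls of Gpx2, Gstm3 and Ggt1 here therefore follow in part from the filter. The 6 lower members were Txn1, Srxn1, Prdx2, Prdx5, Gpx1 and Gpx3. Of the 34 calls, 25 held under every alternative run, a share not computed over all called genes. Gpx1 (-0.38 ± 0.16, 0.0468) lost its call without any 1 of 8 libraries (both ionomycin libraries of PD454 and of PD883, TGFb PD454 18, TGFb PD7591 5 or 6, and TGFb PD883 12; 0.0604 to 0.115) and came to -0.07 with the offset for transcript length. Without the libraries rich in short transcripts Gpx1, Gstt2 and Pgd were not called (0.0915, 0.103 and 0.11). The widest gap between the agents among called members was at Gsta1, 87.3-fold higher with ionomycin (log2 6.45 ± 0.35, adjusted p = 2.96e-11), and Gclc was 13.2-fold higher (3.72 ± 0.14, 3.94e-13). Hmox1, Gsto1 and Abcc1, called higher with both agents against DMSO, showed differences of 0.08 ± 0.27, 0.09 ± 0.19 and 0.05 ± 0.13 between the agents (0.801, 0.692 and 0.77).

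Within single lines, ionomycin changed 8 members upward and 2 downward in PD454, 15 and 3 in PD7591, and 7 and 6 in PD883. These are 18.9%, 34% and 24.5% of the members, beside 21%, 18.6% and 22.5% of all genes in the same tests (11.7% higher and 9.34% lower, 11.2% and 7.41%, and 11.6% and 10.9%). With an offset per library for its dependence on transcript length, the PD883 counts were 14 and 6 and the PD454 counts 16 and 4, and with library totals the PD454 counts were 8 and 5. TGFb changed 4 upward and 22 downward in PD454, 10 and 19 in PD7591, and 8 and 25 in PD883, which are 49.1%, 54.7% and 62.3% of the members beside 31%, 37.8% and 38.4% of all genes (14.8% higher and 16.1% lower, 17.7% and 20.1%, and 18.4% and 20%). These tests rest on the spread between duplicates alone. Leaving out DMSO PD7591 1 or 2 or ionomycin PD7591 4 moved the rises with ionomycin in PD7591, which ran from 5 to 17 over all single libraries left out.

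The size of the response differed between lines for 2 of the 53 members with ionomycin and for 5 with TGFb, beside 2.59% and 5.26% of all genes. Gclc fell with TGFb in each line, with log2 fold changes of -2.69 ± 0.13 in PD454, -3.35 ± 0.14 in PD7591 and -3.79 ± 0.14 in PD883 (adjusted p = 0.00655 for a difference between lines). Gstt1, a theta-class transferase, had 1.17 and 1.65 CPM in PD454, 0.96 and 1.26 in PD7591 and 6.27 and 8.04 in PD883 with DMSO, and 0.14 to 0.69 CPM in all TGFb libraries. Its log2 fold changes with TGFb were -3.18 ± 0.48, -0.74 ± 0.39 and -3.91 ± 0.35 in these lines (0.00764). With ionomycin it had 1.28 to 5.57 CPM (median 1.74; -0.13 ± 0.35 over the lines, adjusted p = 0.81).

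Gsto1 stood out in PD7591. There it had 66.2 and 70.5 CPM with DMSO, below the 140 to 209 CPM of the other lines, and reached 219 and 250 with ionomycin and 229 and 231 with TGFb, within the range of the other lines under the same agents. Its log2 fold change in PD7591 was 1.78 ± 0.20 with ionomycin and 1.75 ± 0.20 with TGFb, against 0.33 to 0.55 in the other lines (adjusted p = 0.0282 and 0.0102 for a difference between lines). Fth1 likewise began low in PD7591, at 799 and 801 CPM with DMSO, and rose there by 2.34 ± 0.24 with ionomycin, against 0.86 ± 0.23 in PD454 and 1.21 ± 0.23 in PD883 (0.0449). With TGFb it fell by 1.91 ± 0.24 in PD883, and the log2 fold changes were -0.48 ± 0.23 in PD454 and -0.37 ± 0.23 in PD7591 (0.0162). Tkt fell in every line, with log2 fold changes of -0.97 ± 0.13, -1.03 ± 0.13 and -1.71 ± 0.14 with TGFb in PD454, PD7591 and PD883 (0.0453).

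**Figure D4:**
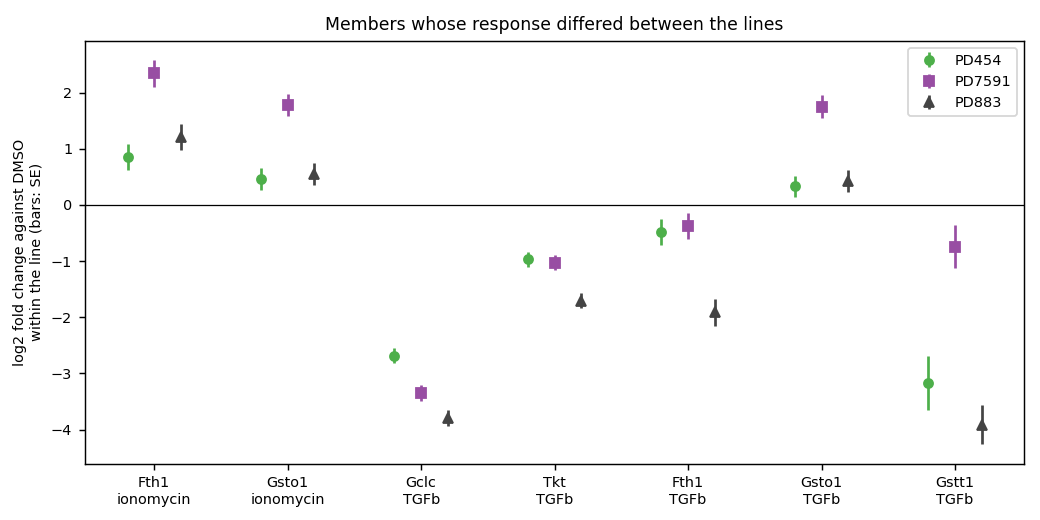
Log2 fold change against DMSO within each line (y axis, bars are SE) for the 7 pairs of member and treatment (x axis) whose response differed between lines at an adjusted p under 0.05. PD7591 stands highest for Fth1 and Gsto1 with ionomycin and for Gsto1 and Gstt1 with TGFb, and PD883 lowest for all TGFb falls.

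The lines already differed with DMSO alone, at 33 of the 53 members, or 62.3%, beside 47.9% of all genes. PD7591 was below PD454 at 16 members and above it at 2 (11.6% and 9.97% of all genes). Gsta1 was 124 and 187 CPM in PD454, 35.1 and 68.9 in PD883 and 6.37 and 7.19 in PD7591. PD883 was above PD454 at 15 members and below it at 9 (17.9% and 17.4% of all genes), and above PD7591 at 23 and below it at 2 (18.4% and 15.7%). These pairwise counts were not rerun without DMSO PD454 14 and DMSO PD883 8, which are rich in short transcripts. Nor were they rerun with the length offset, so their dependence on transcript length was not tested. The counts include genes that passed the low-count filter mainly through 1 line. Gstm6 (0.74 and 0.73 CPM with DMSO in PD883, at most 0.13 in any library of the other lines) and Ggt1 passed through PD883. Gstp3 passed through PD454 (1.97 and 2.40 CPM with DMSO, at most 0.34 in the other lines). Their calls between lines therefore follow in part from the filter. Members called higher in PD883 than in both other lines included Nqo1, Gpx3, Gstt1, Gstt3 and Cat, with log2 differences from PD454 of 0.99 ± 0.13 (Cat) to 3.04 ± 0.50 (Gpx3). It was below both at Gsr and Txnrd1, by 1.46 ± 0.32 and 0.98 ± 0.21 from PD454.

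By call, the element core was in a window of 8 of the 24 members with a window that fell with TGFb, 1 of the 8 that rose and 4 of the 14 not called. With ionomycin it was in 2 of 11 that rose, 2 of 6 that fell and 9 of 29 not called. Among its holders, Gclm and Nfe2l2 fell with TGFb, Srxn1 rose, and Txnrd1, whose stretch is printed above, was called in neither comparison. A match is a string of letters in a short window and shows no binding, and sequence outside the windows was not searched.

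Beyond the 54 genes, 86 of 90 other genes of the pathway were tested: NRF2 partners, other glutathione, thioredoxin, NADPH and iron genes, and other known NRF2 targets. With ionomycin 25 rose and 17 fell (48.8% called, beside 33.3% of all genes), and with TGFb 15 rose and 34 fell (57% beside 50.7%). Of 16 other NRF2 targets, 9 rose and 1 fell with ionomycin, and 1 rose and 9 fell with TGFb, 62.5% called in each comparison. These lists were chosen with earlier results of these data known, so the counts are no blind test of the pathway. The rises of smallest p with ionomycin were Cth, which makes cysteine from cystathionine (log2 fold change 3.21 ± 0.21, adjusted p = 1.53e-08), Aldh1l2, a mitochondrial NADPH source (2.96 ± 0.20), Chac1, which degrades glutathione (2.05 ± 0.15), and the NRF2 relative Nfe2l1 (0.84 ± 0.10). Falls of smallest p were Gpx8, a peroxidase of the endoplasmic reticulum (-2.04 ± 0.22), Idh1, a cytosolic NADPH source (-0.80 ± 0.09), the iron exporter gene Slc40a1 (-1.07 ± 0.15) and Aco1, an iron-sensing aconitase (-0.50 ± 0.07).

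With TGFb the rises of smallest p were Ggct, which acts in glutathione breakdown (1.82 ± 0.19, adjusted p = 3.19e-07), Btrc, a ubiquitin ligase adaptor that can target NRF2 (0.84 ± 0.11), Mafk, a small MAF partner of NRF2 (1.02 ± 0.15), and Gpx8 (1.18 ± 0.20). The falls were Abcc3, a conjugate exporter (-3.51 ± 0.20, adjusted p = 1.1e-10), Slc40a1 (-2.58 ± 0.16), Ncoa4, the receptor that delivers ferritin to lysosomes (-1.80 ± 0.14), and Mgst3, a membrane transferase (-1.82 ± 0.15). Cth, Aldh1l2 and Chac1, which rose with ionomycin, fell with TGFb (-0.72 ± 0.21, -1.53 ± 0.19 and -0.44 ± 0.15), and Gpx8 fell with ionomycin and rose with TGFb.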

How the data were processed

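The authors deposited 1 table of read counts per gene for the 18 libraries, used as deposited; per the submitters' processing notes CASAVA, Trimmomatic 0.32, STAR, featureCounts and the mouse build mm10 were used, while the settings and the strand and annotation used in counting were not stated there. Genes were filtered with filterByExpr over the 9 groups and scaled by TMM. The quasi-likelihood F test (edgeR 4.0.16, R 4.3.3) was fitted with treatment and line (residual df 13), or with a mean per group (residual df 9) for tests within and between lines, and p-values were adjusted by Benjamini-Hochberg over 13827 genes with a threshold of 0.05. SE is the log2 fold change over the square root of F. RPKM and coordinates use GENCODE M21. The code was tested on simulated data. DESeq2 1.42.0, limma-voom (limma 3.58.1) and other filters, scalings and sets of libraries were tried as alternatives.

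Genes named in full were a panel (Nfe2l2, Keap1, Gclc, Gclm, Nqo1, Hmox1, Txnrd1, Srxn1, Cat, Gpx4), the 6 of smallest p called each way per treatment with a mean of at least 2 CPM, and the 4 of smallest p for a difference between lines; of the other pathway genes, up to 4 each way per treatment. The members and lists were chosen with earlier results of these data known. Symbols turned into dates (26 entries) were left as they are. Every duplicate pair differed beyond sampling noise (chi-square over its degrees of freedom 4.99 to 92.9).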

Additional observations from a re-analysis of the deposited data

Results flagged for a closer look

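The response of 5 members differed between the 3 lines in 7 tests (edgeR quasi-likelihood F test, adjusted over all genes). With TGFb these were Gclc (adjusted p = 0.00655), Gstt1 (0.00764), Gsto1 (0.0102), Fth1 (0.0162) and Tkt (0.0453), and with ionomycin Gsto1 (0.0282) and Fth1 (0.0449). Gclc and Gstt1 with TGFb kept this call without each single library. Fth1 with ionomycin lost it without any 1 of 12 libraries (0.0512 to 0.159), Tkt without any 1 of 12 (0.0556 to 0.173) and Gsto1 with ionomycin without any 1 of 8 (0.0543 to 0.132). Fth1 with TGFb lost it without TGFb PD883 12 (0.0525), and Gsto1 with TGFb without DMSO PD7591 2 (0.0521). Over the lines, the log2 fold change of Gstt1 with TGFb was -1.64 without PD883 and -3.64 without PD7591.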

How the results depend on the processing

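Of the 38 members called with TGFb, 25 kept their call under every alternative run and 36 without each single library. Of the 20 called with ionomycin, 6 and 14 did. The shares of all called genes that kept their call were not computed, so the members' stability cannot be set beside that of other genes. With duplicates summed, Cat, Ftl1, G6pdx, Gclc, Gstm4, Gsto1, Gstp1, Keap1, Prdx5, Srxn1 and Tkt lost their call with ionomycin, and Fth1, G6pdx, Gpx2, Gss, Gsto1, Prdx3 and Sod1 with TGFb. No called member changed direction. Leaving out PD7591 gave 9 members higher with ionomycin, and 7 members and 9 other pathway genes higher with TGFb; leaving out PD883 gave 3 members lower with ionomycin. With no line term 7 members were higher with ionomycin, 11 other pathway genes lower with ionomycin and 7 higher with TGFb. With duplicates summed, 6 members were higher and 3 lower with ionomycin, and of the other pathway genes 16 were higher and 9 lower with ionomycin and 9 higher with TGFb. In both of these runs fewer of all genes were called with ionomycin too, as given above. With the length offset, 16 members rose and 4 fell with ionomycin and 7 rose with TGFb within PD454, 5 fell with ionomycin within PD7591, 14 rose with ionomycin within PD883, and 9 depended on line with TGFb. Library totals gave 5 lower with ionomycin within PD454. With no low-count filter 1 member fell with ionomycin within PD7591 and 7 depended on line with ionomycin. Without the 4 libraries rich in short transcripts, 5 fell with ionomycin within PD7591, and 7 with ionomycin and 8 with TGFb depended on line.

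Without each single library, ionomycin counts within PD454 ran from 5 to 11 higher and 0 to 3 lower, and within PD7591 from 5 to 17 higher and 0 to 4 lower; with TGFb 12 to 19 were lower within PD7591 and 5 to 9 higher within PD883, and 0 to 5 members with ionomycin and 3 to 7 with TGFb depended on line. A group left with 1 library is assumed to vary like the others. The changes of sign were all in members not called. With ionomycin, Gclm was -0.0242 with the length offset, -0.0496 with library totals, -0.0039 without PD883 and -0.0014 to 0.0944 without single libraries (lowest without ionomycin PD883 9); Gpx4 was 0.0227 without the 4 libraries; Nfe2l2 was 0.0252 without PD7591; Nqo1 was -0.0858 by limma-voom, -0.0042 without PD454, -0.0703 without PD7591 and -0.16 with no line term; and Txnrd1 was -0.0657 without PD883. With TGFb, Gpx4 was -0.0173 with the length offset, -0.0696 without PD7591 and -0.0029 to 0.232 without single libraries (lowest without DMSO PD454 13), and Txnrd1 was -0.14 without PD883 and -0.0395 to 0.165 without single libraries (lowest without DMSO PD883 7). The causes were not tested. No paired analysis was possible because no library number is shared between groups; the line, which every treatment shares, is a term of the fit over lines. Low counts limit Ggt1, Gpx2, Gstm3, Gstm6 and Gstp3.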
